A study of Homo sapiens with 8 samples.

Results

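The genes examined are 10 components of the bone morphogenetic protein (BMP) pathway, chosen by name from the 54174 gene symbols of the deposited expression table: the ligands BMP2 and BMP4, the receptors BMPR1A and BMPR2, the signal transducers SMAD1 and SMAD5, the inhibitor SMAD6 and the targets ID1, ID2 and ID3. Each of the 10 was measured in every one of the 8 libraries, as were 13943 symbols of the whole table, and 7 of them were among the 9016 genes with a mean log2 value of at least 1 that entered the test. BMP2, BMPR1A, BMPR2, SMAD1, SMAD5, ID1 and ID3 were tested there. BMP4, SMAD6 and ID2 lay below that mean and were described separately.

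The cells were 143B, an established human osteosarcoma line grown in medium with fetal bovine serum. The control group was 4 libraries of cells that received a vector plasmid, and the knockout group was 4 libraries of cells that received a plasmid labelled NELL1KO, each for 48 h. Both groups were transfected transiently with the same reagent, TransIT-LT1, so a library may be a pool of transfected and untransfected cells. Whether cells were selected or cloned afterwards was not established here. The deposited column names of the knockout libraries begin with SCC, which the labels do not explain. The share of cells that took up the plasmid or lost the gene is not given in the sources used here. The series title places the comparison in the control of the matrisome, the genes of the extracellular matrix, by NELL1, a secreted protein.

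BMPs are secreted dimers that bind a complex of type I receptors, such as BMPR1A, and type II receptors, such as BMPR2. The type I receptor phosphorylates SMAD1 and SMAD5, which join SMAD4, enter the nucleus and switch on targets that include the ID genes and SMAD6. ID proteins lack a DNA-binding region and hold E proteins away from DNA, while SMAD6 blocks the receptors and the activated SMADs, a negative feedback. In bone the pathway is known for driving mesenchymal cells towards osteoblasts.

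The promoters of the 4 genes among the 10 that are such direct targets are shown first, because their levels form the main pattern below. Each sequence is the 250 bases before the start site in RefSeq (GRCh38.p14), 5′ to 3′ on the strand of the gene. ID1 is at chr20:31605039-31605288 (plus strand), ID2 at chr2:8681806-8682055 (plus strand), ID3 at chr1:23559502-23559751 (minus strand) and SMAD6 at chr15:66701986-66702235 (plus strand). Capitals mark matches, on either strand, to GGCGCC and GGAGCC, GC-rich sequences described for SMAD1 and SMAD5 binding, and to CAGAC, a form of the SMAD box. Shorter or other forms of that box were not searched and are not marked.
ID1: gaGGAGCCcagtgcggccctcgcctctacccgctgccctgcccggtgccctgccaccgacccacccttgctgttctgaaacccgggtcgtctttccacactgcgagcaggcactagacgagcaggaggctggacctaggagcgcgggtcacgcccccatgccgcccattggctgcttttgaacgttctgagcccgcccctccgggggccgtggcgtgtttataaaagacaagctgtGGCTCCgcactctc
ID2: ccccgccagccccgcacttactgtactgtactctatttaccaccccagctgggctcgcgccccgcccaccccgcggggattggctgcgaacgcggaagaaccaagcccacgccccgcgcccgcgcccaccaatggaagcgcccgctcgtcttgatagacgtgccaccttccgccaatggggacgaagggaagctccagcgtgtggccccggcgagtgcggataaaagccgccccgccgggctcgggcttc
ID3: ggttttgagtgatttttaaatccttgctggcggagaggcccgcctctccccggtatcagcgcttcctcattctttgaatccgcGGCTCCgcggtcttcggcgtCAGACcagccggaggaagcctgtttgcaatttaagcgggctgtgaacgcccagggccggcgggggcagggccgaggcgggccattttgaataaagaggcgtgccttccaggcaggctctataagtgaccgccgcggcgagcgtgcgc
SMAD6: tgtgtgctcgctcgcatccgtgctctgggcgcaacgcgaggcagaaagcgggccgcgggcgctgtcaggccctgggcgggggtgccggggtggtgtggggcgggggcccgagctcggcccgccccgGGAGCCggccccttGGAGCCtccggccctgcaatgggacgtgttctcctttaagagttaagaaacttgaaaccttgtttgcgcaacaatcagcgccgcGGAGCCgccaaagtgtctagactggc
GGAGCC occurred 3 times in the window of SMAD6, 2 times in that of ID1 and once in that of ID3. CAGAC occurred once, in the window of ID3, at bases -147 to -143 from the start site. GGCGCC, which reads the same on both strands, occurred in none of the 4 windows, and that of ID2 held none of the 3 motifs. The motifs were not particular to these targets. In the same search the window of BMPR2 held all 3 motifs, that of SMAD5 held GGAGCC 2 times and that of BMPR1A held none. Sequence outside these windows was not searched, so sites further from the start would be missed. Among all 35116 RefSeq promoter windows of this length, 16.4% held GGCGCC, 30.6% held GGAGCC and 38% held CAGAC. None of the motifs overlapped another in these 4 windows. The windows were GC-rich, at 66% for ID1, 69.2% for ID2, 62% for ID3 and 68% for SMAD6, against a median of 58% over all windows.

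Knockout libraries 1 and 2 resembled each other closely, as did knockout libraries 3 and 4: the SD across tested genes of the log2 difference within these pairs was 0.12 to 0.13. Across the pairs it was 0.46 to 0.50, more than between any control and any knockout library (0.36 to 0.45). Deviations from the group means were shared by same-numbered control and knockout libraries, but also by differently numbered ones within replicates 1 and 2 or within 3 and 4. The replicate number is treated as a pairing, though the deviations do not clearly single it out and the labels do not tie it to a shared preparation. Results with it as a block are given where they differ. The targeted gene did not check the labels: NELL1 had log2 values (the authors' normalized scale, used throughout) of -6.97, -6.97, -4.53 and -5.00 in control libraries 1 to 4 and of -4.82, -5.87, blank and -6.96 in knockout libraries 1 to 4. These values lie near the bottom of the table in the controls too, so they cannot show whether the gene was lost. The groups overlapped (difference -0.01, exact two-sided permutation test, p = 1). Of 10 markers of the osteosarcoma and osteoblast lineage, 6 had a value in all libraries, among them VIM, CDH2, SPARC and RUNX2, while the osteoblast genes SP7 and IBSP were blank throughout. Of its 3 tested markers 2 were called, VIM lower (-0.43, limma adjusted p = 0.0425, and 0.0507 with the block, which ended the call) and SPARC higher (0.62, limma adjusted p = 0.0294). The log2 of the summed list, nearly all of it VIM, ran from 10.84 to 10.92 in the controls and from 10.30 to 10.75 in the knockout libraries. Of 5 epithelial markers, EPCAM, KRT8 and KRT18 had values in all libraries and CDH1 in 2 controls. KRT8 rose (0.38, limma adjusted p = 0.0176), EPCAM differed by -0.32 (limma adjusted p = 0.345), KRT18 by 0.19 without passing the threshold, and the summed list, to which KRT18 and KRT8 contribute most, ran from 9.06 to 9.18 in the controls and from 9.26 to 9.46 in the knockout libraries. The leukocyte genes PTPRC and CD3E were blank throughout, while the monocyte gene CD14 had log2 values of -4.90 to -4.22 in the controls, was blank in knockout libraries 1 and 2 and stood at -2.67 and -2.94 in knockout libraries 3 and 4. The part of these markers in the results below was not tested.

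**Figure D1:**
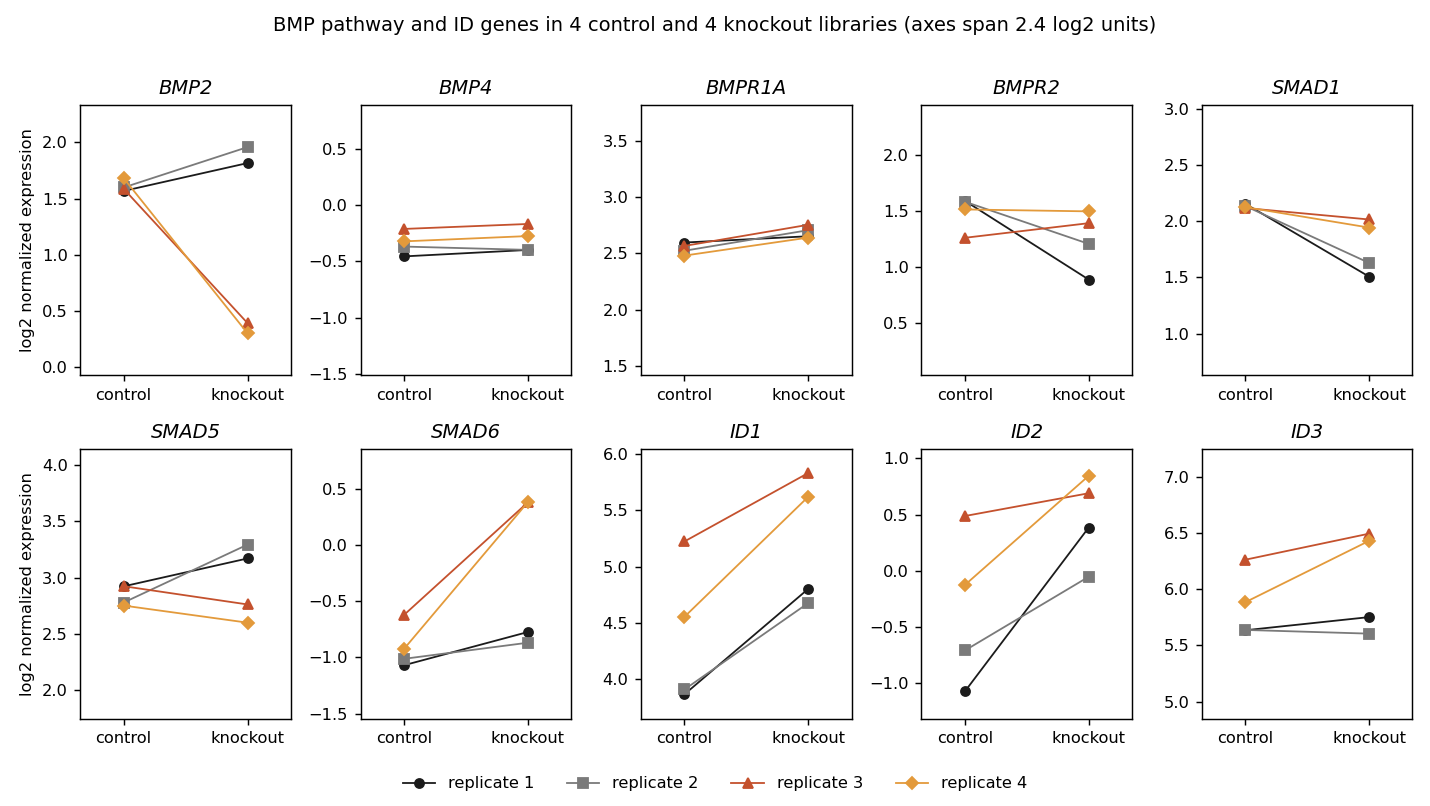
Log2 normalized expression of each of the 10 genes in control and knockout libraries, with 1 panel per gene and a line joining the libraries that share a replicate number. The lines of ID1 run upwards and nearly parallel in all 4 replicates, whereas those of BMP2 run upwards in replicates 1 and 2 and downwards in replicates 3 and 4.

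ID1 was higher in the knockout library of every same-numbered pair, by a similar amount each time, and it was the gene of the 10 that passed the test once replicate numbers were taken into account. ID2 was also higher in all 4 pairs and ID3 in 3 of 4, but neither passed the threshold in a fit of all 8 libraries. The levels of all 3 ID genes also varied among the controls, with control library 3 the highest. In such bulk samples, a change in the share of cells with a transcript cannot be told apart from a change in the amount per cell.

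ID1 (chromosome 20, bases 31605289 to 31606510, GRCh38.p14) encodes the founding inhibitor of DNA binding. ID1 stood at log2 3.86, 3.91, 5.22 and 4.55 in the controls 1 to 4 and 4.80, 4.68, 5.83 and 5.62 in knockout libraries 1 to 4. The groups overlapped, because control library 3 exceeded knockout libraries 1 and 2, yet each knockout library exceeded the control of its own number. The means were 4.39 ± 0.64 and 5.23 ± 0.58 (SD, n = 4 each). Within pairs 1 to 4 the difference was 0.94, 0.77, 0.61 and 1.07 log2 units, with an SD of 0.20 over pairs, which is far smaller than the SD within either group.

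Without a block, the log2 fold change of ID1 was 0.85 ± 0.36 (SE; limma adjusted p = 0.160). With the replicate number as a block it was 0.85 ± 0.10 (SE; limma adjusted p = 0.0128), so ID1 rose 1.80-fold in that fit. The rise was 0.85 in the first set (replicates 1 and 2) and 0.84 in the second set (replicates 3 and 4). With the block and without pair 1, 2, 3 or 4 in turn, the limma adjusted p was 0.0441, 0.0514, 0.0460 and 0.0664, so that the call was lost without pair 2 or pair 4. The fold change in these fits was 0.82, 0.87, 0.92 and 0.77, and they called 108, 70, 125 and 0 of all genes. With each close pair of knockout libraries averaged and no block, the fold change was 0.85 and the limma adjusted p was 0.318, in a fit that called 1.2% of all genes.

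ID2 (chromosome 2, bases 8682056 to 8684461) encodes a second inhibitor of the family. ID2 stood at log2 -1.07, -0.71, 0.49 and -0.13 in control libraries 1 to 4 and 0.38, -0.05, 0.69 and 0.84 in knockout libraries 1 to 4. Control library 3 again lay within the knockout range and the other controls below it. The difference of means was 0.82 (exact two-sided permutation test, p = 0.114, smallest possible p = 0.0286). Within pairs 1 to 4 it was 1.46, 0.66, 0.20 and 0.97, a wider scatter than for ID1. In the limma fit without the filter on the mean, the adjusted p was 0.183, and with the block 0.106.

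ID3 (chromosome 1, bases 23557926 to 23559501) moved least of the family. ID3 stood at log2 5.63, 5.64, 6.26 and 5.88 in control libraries 1 to 4 and 5.75, 5.60, 6.49 and 6.43 in knockout libraries 1 to 4. Knockout library 1 sat among the controls, knockout library 2 just below all of them and knockout libraries 3 and 4 above all of them. The log2 fold change was 0.22 ± 0.23 (SE; limma adjusted p = 0.575), and 0.04 in the first set against 0.39 in the second. Without a single library it was 0.07 (knockout library 3), 0.10 (knockout 4), 0.14 (control 1 or 2), 0.35 (control 3) or 0.37 (knockout 2). With the block the limma adjusted p was 0.234.

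Of the controls, library 3 was the highest for all 3 genes, and knockout libraries 3 and 4 were above knockout libraries 1 and 2. Control library 3 exceeded the mean of the other controls by 1.12 log2 units for ID1, 1.12 for ID2 and 0.54 for ID3. Knockout libraries 3 and 4 exceeded knockout libraries 1 and 2 by 0.99, 0.60 and 0.78. After centring each gene on its own mean over the 8 libraries, the root mean square distance between the profiles was 0.20 log2 units for ID1 and ID2, 0.39 for ID1 and ID3 and 0.41 for ID2 and ID3, beside spreads of 0.68 for ID1, 0.63 for ID2 and 0.35 for ID3 themselves. The distances of ID3 thus exceeded its own spread. The libraries with high ID values were also high for GC-rich transcripts: the 881 genes of highest transcript GC content had a median deviation of 0.08 in control library 3, 0.09 and 0.07 in knockout libraries 3 and 4, and -0.06 to 0.01 in the others. The ID1 transcript has 58.6% GC. After correction for GC content and length the fold change of ID1 was 0.82, with limma adjusted p = 0.150 without and 0.0116 with the block. Corrected ID1 was 3.93, 3.93, 5.18 and 4.56 in control libraries 1 to 4 and 4.75, 4.64, 5.84 and 5.65 in knockout libraries 1 to 4. The cause of the pattern between libraries was not tested.

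Genes outside the pathway list lay closer to each ID gene than the other ID genes did. Of 9009 tested genes other than the 10, the profiles nearest to ID1 were those of PIGQ, GAS6 and KIF26A, at distances of 0.0875, 0.138 and 0.140 log2 units over the 8 libraries. PIGQ, a subunit of the enzyme that starts GPI-anchor synthesis, had log2 values of 0.86, 0.97, 2.16 and 1.47 in control libraries 1 to 4 and 1.84, 1.75, 2.87 and 2.84 in knockout libraries 1 to 4. The nearest to ID2 were XRCC3, CDH4 and GAS6 (0.176, 0.189 and 0.196), and the nearest to ID3 were PAMR1, FAM53B and SDC1 (0.0504, 0.0692 and 0.0772).

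**Figure D2:**
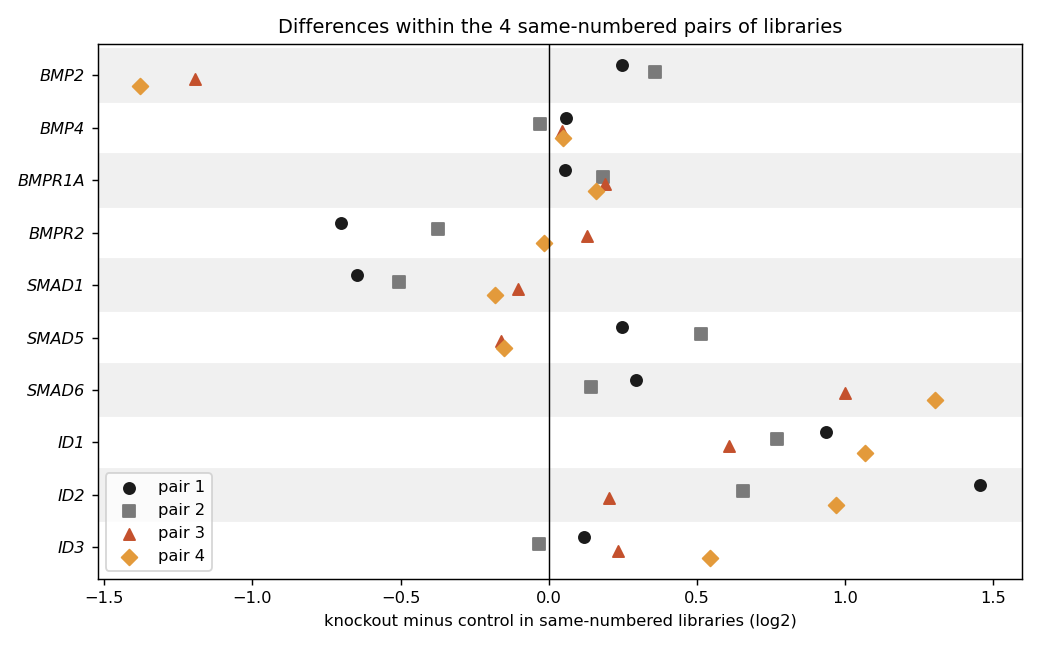
Knockout minus control within each of the 4 same-numbered pairs of libraries, in log2 units, for the 10 genes. ID1 has the 4 pairs between 0.61 and 1.07, SMAD1 has all pairs below 0, and BMP2 has pairs 1 and 2 above 0 and pairs 3 and 4 below -1.

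Among the SMADs, the transducer SMAD1 had lower and the inhibitor SMAD6 higher values in the knockout library of all 4 pairs, and SMAD5 showed no common direction. None passed the test over all genes, with or without the block. The differences were uneven between replicates: that of SMAD1 was larger in the first set and that of SMAD6 in the second.

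SMAD1 (chromosome 4, bases 145480770 to 145559176) had log2 values of 2.15, 2.13, 2.12 and 2.13 in control libraries 1 to 4, nearly the same in each. In knockout libraries 1 to 4 they were 1.51, 1.63, 2.02 and 1.94, all below every control. The log2 fold change was -0.36 ± 0.11 (SE; limma adjusted p = 0.0727), and the limma adjusted p was 0.0958 with the block. Without knockout library 3 it was -0.44 (limma adjusted p = 0.0463), which passed the threshold. The difference was -0.58 in the first set and -0.14 in the second.

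SMAD5 (chromosome 5, bases 136132845 to 136182733), which carries the same signal as SMAD1, had log2 values of 2.92, 2.78, 2.92 and 2.75 in control libraries 1 to 4. In knockout libraries 1 to 4 it was 3.17, 3.29, 2.76 and 2.60, so libraries 1 and 2 lay above all controls and library 4 below them. The fold change over all libraries was 0.11 ± 0.15 (SE; limma adjusted p = 0.659), from 0.38 in the first set and -0.16 in the second. Where SMAD1 was lowest, in knockout libraries 1 and 2, SMAD5 was highest.

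SMAD6 (chromosome 15, bases 66702236 to 66782849) had log2 values of -1.07, -1.01, -0.62 and -0.92 in control libraries 1 to 4. In knockout libraries 1 to 4 it was -0.77, -0.87, 0.38 and 0.38. Knockout libraries 3 and 4 stood clear of every control and knockout libraries 1 and 2 lay within the control range. The difference of means was 0.69 (exact two-sided permutation test, p = 0.143), from 0.22 in the first set and 1.15 in the second. In the limma fit without the filter on the mean, the adjusted p was 0.221, and with the block 0.151. The SMAD6 transcript has 58.9% GC, close to that of ID1. Its profile lay 0.30 log2 units from ID1 and 0.29 from ID3.

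The ligands gave a different picture from the targets: BMP2 went in opposite directions in the close pairs of knockout libraries and BMP4 stayed within its narrow control range in 3 of 4 knockout libraries. BMP2 (chromosome 20, bases 6767686 to 6780246) is a potent inducer of bone. Its controls were tight, at 1.57, 1.60, 1.59 and 1.68 in libraries 1 to 4. Knockout libraries 1 to 4 gave 1.82, 1.96, 0.39 and 0.30, so that all 4 lay outside the control range, libraries 1 and 2 above it and libraries 3 and 4 below it. The average change was -0.49 ± 0.38 (SE; limma adjusted p = 0.421), from 0.30 in the first set and -1.29 in the second. It was -0.77 without knockout library 2, -0.25 without knockout library 3 and -0.22 without knockout library 4. The knockout SD was 0.89, against 0.05 in the controls (n = 4 each). The ID genes and SMAD6 were at their highest in knockout libraries 3 and 4, where BMP2 was lowest.

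BMP4 (chromosome 14, bases 53949736 to 53956891) had log2 values of -0.46, -0.37, -0.21 and -0.32 in control libraries 1 to 4 and -0.40, -0.40, -0.17 and -0.28 in knockout libraries 1 to 4. The groups covered the same range except for knockout library 3, which was the highest by a small margin. The difference was 0.03 (exact two-sided permutation test, p = 0.714), and the limma adjusted p without the filter on the mean was 0.858.

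The receptors differed little between the groups. BMPR1A (chromosome 10, bases 86755763 to 86932844), the type I receptor, had log2 values of 2.60, 2.52, 2.57 and 2.48 in control libraries 1 to 4 and 2.65, 2.71, 2.75 and 2.64 in knockout libraries 1 to 4. All knockout values lay above all controls, though by as little as 0.06 within pair 1. The log2 fold change was 0.15 ± 0.06 (SE; limma adjusted p = 0.146), and it was of similar size in the first set (0.12) and in the second (0.17). BMPR1A had the smallest range of the 10 over the libraries, 0.27 log2 units, next to 0.29 for BMP4.

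BMPR2 (chromosome 2, bases 202376327 to 202567749), the type II receptor, had log2 values of 1.59, 1.58, 1.26 and 1.51 in control libraries 1 to 4. In knockout libraries 1 to 4 it was 0.89, 1.21, 1.39 and 1.50. Knockout libraries 1 and 2 were below every control and the other pair was within the control range. The log2 fold change was -0.24 ± 0.14 (SE; limma adjusted p = 0.285), from -0.54 in the first set and 0.06 in the second. Without knockout library 1 it was -0.12.

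**Figure D3:**
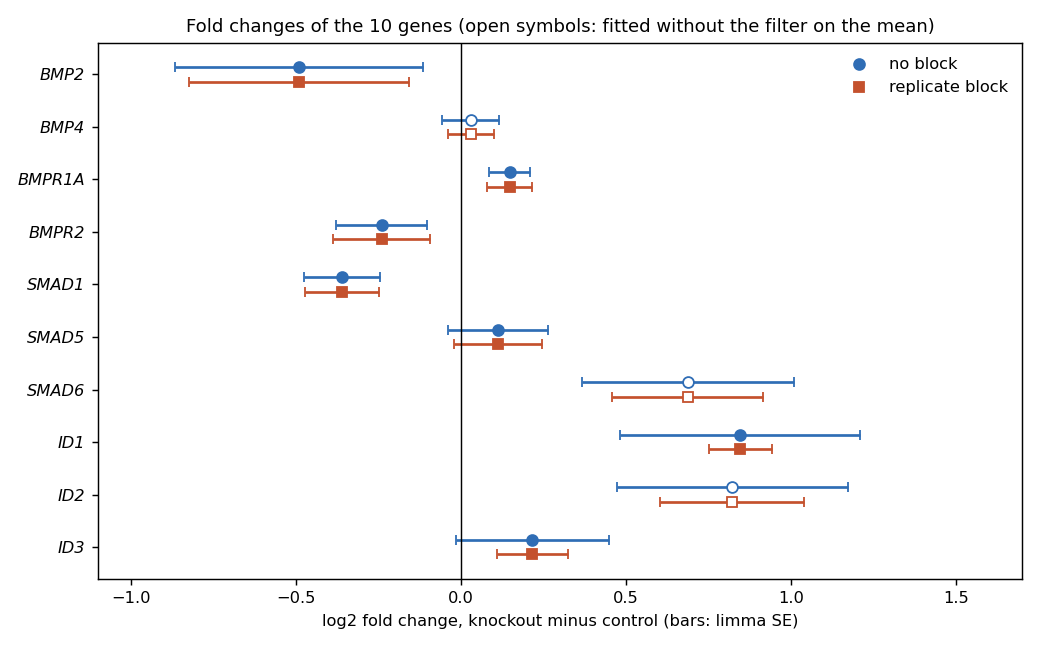
Log2 fold change of each of the 10 genes, knockout minus control, with limma's SE as bars, without a block (circles) and with the replicate number as a block (squares). Open symbols are the 3 genes below the minimum mean, taken from the fits without that filter. The bar of ID1 shrinks from 0.36 to 0.10 with the block, while those of SMAD1 and BMPR1A hardly change.

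Counted together, 0 of the 7 tested genes passed the limma threshold (adjusted p under 0.05), where 13.1% of all 9016 tested genes did. At an unadjusted limma p under 0.05 there were 3 of 7 (BMPR1A and ID1 higher, SMAD1 lower), against 29.7% of all. With the block 1 of 7 passed, ID1 in the upward direction, against 10.2% of all and 5.68% of all in that direction. At an unadjusted limma p the block gave 2 of 7 (ID1 and SMAD1), against 30.4%. Without the filter on the mean, 0 of the 10 passed, against 8.3% of 13943 genes, and with the block 1 did (ID1), against 3.02%. A term for the 2 sets of replicates in place of the block gave 2 of 7 (ID1 and SMAD1), against 25.2%.

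Within the first set alone 5 of 7 passed, against 59.7% of all genes, and within the second set alone 3 of 7 (BMP2, ID1 and ID3), against 33.1%. The median log2 fold change of the 7 was 0.11 and that of all tested genes 0.01. Of the 7, 2 had no overlap between the groups, against 22.9% of all: BMPR1A in the upward direction (12.5% of all) and SMAD1 in the downward direction (10.4%). Of the 10, 4 were higher in the knockout library of each pair (BMPR1A, SMAD6, ID1 and ID2), against 20.8% of 13943 genes, and 1 was lower in each (SMAD1), against 16.7%. The sets differed in sign for 3 of the 7 (BMP2, BMPR2 and SMAD5), against 43.0% of all tested genes.

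The rest of the pathway was followed through a list of 70 genes, of which 56 were measured in every library, 9 in none and 39 were tested. Among the tested genes the secreted antagonists FST and NOG, which bind ligands outside the cell, and the co-receptor RGMB were higher in the knockout libraries. The transcription factors JUNB and MSX1, listed among the targets, were lower. These 5 (3 higher, 2 lower) are 12.8% of the 39, close to the 13.1% of all tested genes. The median log2 fold change of the 39 was 0.01, as over all genes.

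NOG encodes noggin, which binds BMP2 and BMP4 and keeps them from their receptors. NOG stood at log2 2.31, 2.46, 2.45 and 2.36 in control libraries 1 to 4 and 2.86, 2.94, 3.32 and 3.30 in knockout libraries 1 to 4, with no overlap. NOG rose by 0.71 ± 0.12 (SE; limma adjusted p = 0.00863), and in all 4 pairs by 0.47 or more. FST encodes follistatin, which binds activins and, more weakly, some BMPs. It rose by 2.46 ± 0.32 (SE; limma adjusted p = 0.00413), and its large rise was among the earlier results known when the list was written. RGMB, a co-receptor for BMP ligands, rose by 0.30 ± 0.06 (SE; limma adjusted p = 0.0165), with pair differences of 0.29 to 0.32. Without control library 1 or 4 its fold change was 0.30 and 0.29 (limma adjusted p = 0.0569 and 0.0683), in fits that called 444 and 391 of all genes. Of the 9 antagonists and modulators tested, 2 (FST and NOG) passed in the upward direction, where 7.02% of all tested genes did, and none in the downward direction. Because the rise of FST was known beforehand, this count cannot be weighed against that share. At an unadjusted limma p under 0.05 there were 5, of which 4 were higher, against 29.7% of all in either direction. With the block FSTL3, a relative of follistatin named here after its value was seen, was also called (0.44, limma adjusted p = 0.0348; 0.0809 without).

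JUNB, an AP-1 factor that is induced early by BMP and by many other signals, fell by 0.71 ± 0.06 (SE; limma adjusted p = 0.00117). Its log2 values were 4.35, 4.40, 4.21 and 4.39 in control libraries 1 to 4 and 3.62, 3.63, 3.61 and 3.65 in knockout libraries 1 to 4, with no overlap. MSX1, a homeobox gene downstream of BMP in many embryonic tissues, fell by 0.61 ± 0.09 (SE; limma adjusted p = 0.00611), by 0.41 in the first set and by 0.81 in the second. JUNB and MSX1 were lower, and ID1 higher, in the knockout library of all 4 pairs. With the knockout pairs averaged, FST (limma adjusted p = 0.0487) and JUNB (0.0270) stayed past the threshold, and NOG (0.0566), MSX1 (0.0525) and RGMB (0.125) did not.

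None of the 12 tested SMADs and intracellular regulators and neither of the tested ligands passed, where 13.1% of all tested genes did. At an unadjusted limma p under 0.05 these were 3 of 12, near the 29.7% of all genes, and 0. Some are named here for their role and not by their values. The common partner SMAD4 changed by -0.12 (limma adjusted p = 0.308) and the inhibitor SMAD7 by -0.32 (limma adjusted p = 0.273). SMAD7 was lower in the knockout library of all 4 pairs (-0.53, -0.42, -0.33 and -0.01 in pairs 1 to 4), with overlapping groups, while SMAD6 was higher in all 4. Of 13943 genes, 16.7% were lower and 20.8% higher in all 4 pairs. The E proteins TCF3, TCF4 and TCF12, the partners of the ID proteins, changed by -0.13, 0.01 and -0.06 (limma adjusted p = 0.390, 0.982 and 0.908).

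**Figure D4:**
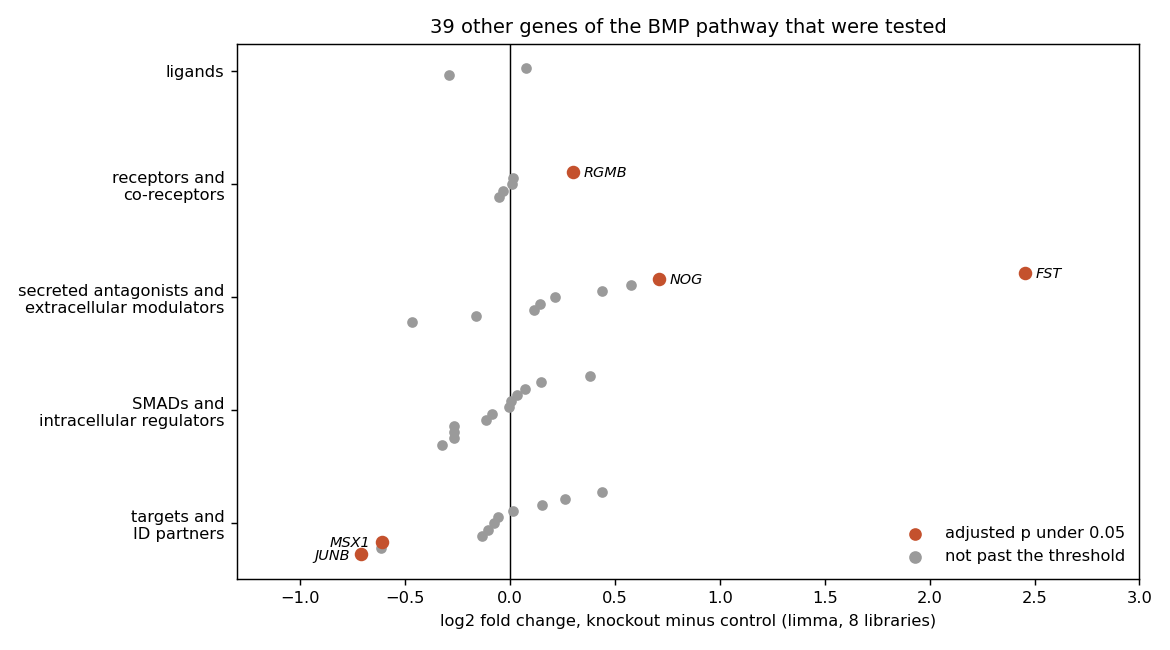
Log2 fold change of the 39 tested genes of the wider pathway list, knockout minus control in 8 libraries, by role. Each point is a gene, and the 5 genes past an adjusted p of 0.05 are named: FST, NOG and RGMB are higher and JUNB and MSX1 lower.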

How the data were processed

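RNA-seq of 4 control and 4 knockout libraries was analysed from the authors' deposited table of log2 values, 1 per gene symbol and library. Per the labels' protocols, libraries were made from TRIzol-extracted RNA with a stranded total-RNA kit. Per the submitters' processing notes, bcl2fastq, Partek 7.0 and GRCh38 were used; aligner, counting rule, annotation and the unit before the logarithm are not given in the sources used here. Base 2 was inferred from the range of values. The deposited log2 values had the same mean (1.07) and median (1.77) in each library, as quantile normalization leaves them, and fold changes are relative to other genes. Because a correction for gene length is not stated, levels were not compared between genes. Depth is unknown, and precision rests on the spread between libraries, which may be technical as well as biological, although the design text calls them biological replicates.

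Groups and replicate numbers came from sample titles. Genes measured in each of the 8 libraries, with mean 1 or more, were fitted with limma 3.58.1 (R 4.3.3; lmFit, eBayes) and adjusted by Benjamini-Hochberg over all of them. Its script was tested on simulated data. The genes under that mean were compared by exact permutation tests. The replicate numbers were taken to pair the libraries, from the data and not from the labels, which do not say what a shared number marks: across genes, deviations from the group means of same-numbered libraries correlated at 0.24, 0.27, 0.29 and 0.20, all over 0.1. Different numbers within replicates 1 and 2, or within 3 and 4, gave 0.11 to 0.31, and numbers from different sets gave -0.30 to -0.15. The correlations thus show the sets of replicates and do not clearly separate pairing by number from membership of a set. The genes and lists were chosen with earlier results of these data known. By rule, named genes were the 10, NELL1, the called genes of the pathway list and the 3 nearest profiles to each ID gene. Markers, SMAD4, SMAD7, TCF3, TCF4 and TCF12 were added for their role, and FSTL3, ATOH8, DLX5, DLX3 and ID4 after their values were seen. RefSeq tables (GRCh38.p14) gave coordinates for all 10 and promoters. GC content and length came from the longest GENCODE 29 transcript, found for 8803 of the 9016 genes, and were removed with natural splines of 5 degrees of freedom each. Genes overlapping the 10, antisense SMAD1-AS1, SMAD1-AS2 and SMAD5-AS1 included, had no value in any library; whether counting used strand is not stated.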

Additional observations from a re-analysis of the deposited data

Results flagged for a closer look

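For BMP2 and SMAD5 both pairs of one set of replicates differed one way and both pairs of the other set the opposite way. BMP2 was higher in the knockout libraries in replicates 1 and 2, by 0.30 log2 units, and lower in replicates 3 and 4 (-1.29). SMAD5 was higher by 0.38 in replicates 1 and 2 and lower in replicates 3 and 4 (-0.16). Of the E proteins, TCF4 (-0.30 in replicates 1 and 2) and TCF12 (-0.56) went the other way, with 0.33 and 0.45 in replicates 3 and 4. The difference between the sets was not tested for these genes, and the sets come from the resemblance of the libraries and not from the study.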

How the results depend on the processing

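The count of genes past the threshold, 0 of 7 tested, was also 0 with no filter on the mean (10 tested) or a stricter one of 3 (2 tested). At an adjusted p under 0.01 in the same fit it could only stay 0. The count was 0 as well with median centring, a pseudocount of 1, a variance trend with robust estimation, averaged knockout pairs and correction for GC content and length. It was 1 with the replicate block, alone or with median centring, with no filter or with the GC and length correction (ID1 each time), 2 with a term for replicates 1-2 against 3-4 (ID1 and SMAD1), 5 in replicates 1-2 alone and 3 in replicates 3-4 alone. Leaving out each library in turn gave 0 to 1, and leaving out each pair with the block gave 0 to 1. These last fits, the GC correction and the blocks combined with another choice were chosen after seeing the data. Of the wider list, 5 genes were called and 2 with a mean of at least 3, 2 with averaged pairs, 9 with the term for the replicate sets, 25 in replicates 1-2 alone, 15 in replicates 3-4 alone, 3 with the block and no filter, 4 to 6 without a library and 0 to 2 with the block and without a pair. Over all genes, 1183 were called and 924 with the replicate block, 729 with a mean of at least 3, 272 at an adjusted p under 0.01, 108 with averaged pairs, 2274 with the term for the sets, 5380 in replicates 1-2 alone, 2987 in replicates 3-4 alone, 421 with the block and no filter, 391 to 1353 without a library (444, 431 and 391 without control libraries 1, 2 and 4, and 716 without knockout library 3) and 108, 70, 125 and 0 with the block and without pair 1, 2, 3 and 4. Reversals were BMP2 in replicates 1-2 (0.30), BMPR2 in replicates 3-4 (0.057), and SMAD5 in replicates 3-4 (-0.16), without knockout library 2 (-8.167e-05; up to 0.23 without another library) and with the block and without pair 2 (-0.022). The NELL1 difference of -0.01 was 0.43 between same-numbered pairs (exact sign-flip permutation test, p = 0.75), -0.54 to 0.52 without a library and -1.16 with the blank set to the lowest value. The BMP4 difference of 0.03 ranged from -0.018 to 0.072 without a library. The cause of these changes was not tested.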

Other observations

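Targets below the minimum mean were examined after their values were seen. ATOH8, a helix-loop-helix gene known as a BMP target in endothelium, had log2 values of -6.94, -6.33, -5.48 and -6.32 in control libraries 1 to 4 and -4.18, -4.40, -3.18 and -2.40 in knockout libraries 1 to 4, with no overlap. In the limma fit without the filter on the mean its fold change was 2.73 (adjusted p = 0.0197; 0.0395 with the block). These values lie near the bottom of the table, where the number of reads behind them is unknown. DLX5, an osteoblast homeobox gene, changed by 0.93 in that fit (limma adjusted p = 0.0418; 0.0932 with the block). ID4, the remaining gene of the ID family, was higher in the knockout library of all 4 pairs, by 1.14 on average, and its groups overlapped (exact permutation test, p = 0.114). The other listed targets of this kind with a value in every library, RUNX2 and DLX3, were not called. They changed by 0.04 and 0.48 in the fit without the filter (limma adjusted p = 0.824 and 0.761). Without the filter, 8.3% of the 13943 genes were called, and 3.02% with the block.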
